A study of Mus musculus with 18 samples.

Results

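The genes described here are the 8 that write, copy and oxidise methyl marks on mouse DNA: Dnmt1, Uhrf1, Dnmt3a, Dnmt3b, Dnmt3l, Tet1, Tet2 and Tet3. They were taken by gene symbol from the 23420 genes counted in each of 18 RNA-seq libraries, and 8 of 8 were present and tested among 17166 genes. The libraries came from the mouse embryonic stem (ES) cell line E14, wild type, grown without feeders in serum and leukemia inhibitory factor, and from cultures differentiated out of them. They fell into 9 groups of 2. ES cells received GW3965, LG268 or both ligands for 24 h, and ES control is the group labelled as the control of these treatments. Differentiated cultures were taken with GW3965 at days 16 and 17, and without ligand at days 8, 16 and 17. Each ligand was used at 1 µM with dimethyl sulfoxide as the vehicle. The labels gave no duration of GW3965 in the differentiated cultures. File names mark the day 16 group as treated since day 8, and carry 24 h for the day 17 group. All differentiated cultures, those without ligand included, had passed through embryoid bodies with 5 µM all-trans retinoic acid over 4 days and were then plated on laminin in N2 medium. GW3965 activates liver X receptors (LXR), and LG268 activates the retinoid X receptor (RXR), the common partner of LXR and of retinoic acid receptors. The labels did not say whether replicates were separate cultures, so p values measure the spread between these libraries, which may be technical.

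Cytosine methylation at CG sites is laid down on bare DNA by Dnmt3a and Dnmt3b, helped by Dnmt3l, a relative with no catalytic activity of its own. After replication Uhrf1 binds hemimethylated CG sites, which carry the mark on the old strand alone, and brings in Dnmt1, which copies the mark to the new strand. Tet1, Tet2 and Tet3 oxidise methylcytosine to hydroxymethylcytosine and beyond, a step towards its removal, and ES cells and neurons are both known for high hydroxymethylcytosine.

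Positions are those of GENCODE M21 on GRCm38 (mm10), the build of the deposited counts. Dnmt1 lies on chromosome 9 (20907209 to 20959888, minus strand), Uhrf1 on chromosome 17 (56303321 to 56323486, plus strand) and Dnmt3a on chromosome 12 (3806007 to 3914443, plus strand). Dnmt3b lies on chromosome 2 (153649450 to 153687730, plus strand) and Dnmt3l on chromosome 10 (78041947 to 78063622, plus strand). Tet1 is also on chromosome 10 (62804570 to 62908996, minus strand), Tet2 on chromosome 3 (133463679 to 133545139, minus strand) and Tet3 on chromosome 6 (83362373 to 83459084, minus strand). Counts of 2 members are less certain because part of their sequence occurs elsewhere. Of the 50-base stretches of the transcripts of Uhrf1, 15.4% also occur in another gene, mostly the pseudogene Gm5648, and for Dnmt3b 9.81% occur in its neighbour and copy Dnmt3c. For the other members the share ran from 0.0118% for Tet2 to 0.761% for Dnmt1. Exons of Dnmt3a overlap the antisense gene Dnmt3aos over 133 bases, those of Dnmt3l overlap Aire over 67 and those of Tet2 overlap Gm42567 over 43, and the strand setting of the counting is not given in the sources used here.

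RefSeq promoter windows on GRCm38.p6, from 250 bases before to 50 after each annotated start, were found for 8 of 8 members (15 windows). They were searched on both strands for 4 spellings of the site of E2F factors, the regulators of replication genes: TTTCCCGC, TTTCGCGC, TTTGCCGC and TTTGGCGC. Any of the 4 stood in 2.26% of 32851 windows of this length. Among the members' windows 2 held one, 1 of Dnmt1 and 1 of Uhrf1, the pair of the maintenance step. These 2 windows are shown because they hold the matches. Capitals mark the matches.
Dnmt1 (chr9:20952574-20952873, minus strand): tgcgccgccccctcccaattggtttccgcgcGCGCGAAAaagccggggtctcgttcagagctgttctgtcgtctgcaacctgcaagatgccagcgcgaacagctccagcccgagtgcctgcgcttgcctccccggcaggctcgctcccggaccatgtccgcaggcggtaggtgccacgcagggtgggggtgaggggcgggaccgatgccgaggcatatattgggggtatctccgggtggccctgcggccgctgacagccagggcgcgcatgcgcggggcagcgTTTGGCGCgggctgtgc
Uhrf1 (chr17:56304063-56304362, plus strand): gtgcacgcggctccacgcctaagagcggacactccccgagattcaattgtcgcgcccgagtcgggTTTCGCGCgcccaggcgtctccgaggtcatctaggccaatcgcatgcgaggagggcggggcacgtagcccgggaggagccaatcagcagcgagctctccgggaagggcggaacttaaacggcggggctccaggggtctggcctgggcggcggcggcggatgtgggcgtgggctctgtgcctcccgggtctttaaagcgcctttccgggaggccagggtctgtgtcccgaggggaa
The Dnmt1 window holds TTTCGCGC on the opposite strand, beginning 219 bases before the start, and TTTGGCGC beginning 33 bases after it. The Uhrf1 window holds TTTCGCGC beginning 185 bases before the start. Both windows shown lie after another annotated start of the same gene, so a match before one start lies after another. Each window shown has 33 CG dinucleotides, against a median of 7 over all windows. All 4 spellings contain CG, and the share of 2.26% was taken over all windows, not over windows equally rich in CG. Among the 15 windows CG dinucleotides were most frequent in that of Tet2 (57) and least frequent in another window of Dnmt1 (2), and the 3 windows of Dnmt3l held 3 to 6. The receptor sites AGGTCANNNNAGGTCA, AGGTCANAGGTCA and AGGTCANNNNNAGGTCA stood in 0.0152%, 0.0396% and 0.00913% of all windows, and in 0 of the 15. A match is a description of letters, and a window without one says nothing about the receptors.

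Gene counts per library ran from 16.75 M to 44.79 M, and member counts from 12 for Dnmt3l in a day 17 library to 16217 for Dnmt1 in an ES library with GW3965. Levels below are CPM, gene counts relative to a library's total after TMM scaling. In the 4 day 17 files 31.84 to 33.53% of reads are listed as aligned more than once, against 0 in the 14 other files, so a step between day 17 and an earlier group cannot be told apart from this difference in the files. The 2 day 16 libraries with GW3965 differed from each other most among the groups, with a chi-square per gene of 40.39 against 2.801 to 10.25 in the other groups. The labels were checked with Abca1, an LXR target. It had 531 to 576 CPM in ES cells with both ligands, 38.1 to 39.9 with LG268 and 327 to 345 with GW3965, against 7.51 to 8.79 in ES control. With GW3965 it had 334 to 361 CPM at day 16 and 313 to 365 at day 17, against 86.9 to 92.6 and 153 to 155 CPM without ligand at those days. ES cell markers (Pou5f1, Nanog and 6 others) summed to 163 to 176 CPM at day 8, against 2210 to 2220 CPM in ES control. Neural progenitor markers summed to 2000 to 2060 CPM at day 8, against 561 to 566 CPM in ES control. Cultures at days 16 and 17 also carried mesenchyme markers (Col1a1, Col1a2, Col3a1, Dcn and Lum) at a summed 4460 to 11000 CPM, against 97 to 102 CPM in ES control.

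Differentiation without ligand split the members. Between ES control and day 8, Dnmt3b, Dnmt3l, Tet1, Uhrf1 and Dnmt1 fell, while Tet3, Tet2 and Dnmt3a rose (edgeR quasi-likelihood test of all 18 libraries, adjusted p below 0.05). So 8 of 8 members changed at day 8, 3 up and 5 down, where 78.7% of all genes tested changed, 39.7% up and 39.1% down. That share is close to the background, so the count itself says little about the members, whose sizes of change are given next. In bulk RNA, fewer cells of a type and less RNA per cell cannot be told apart.

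**Figure D1:**
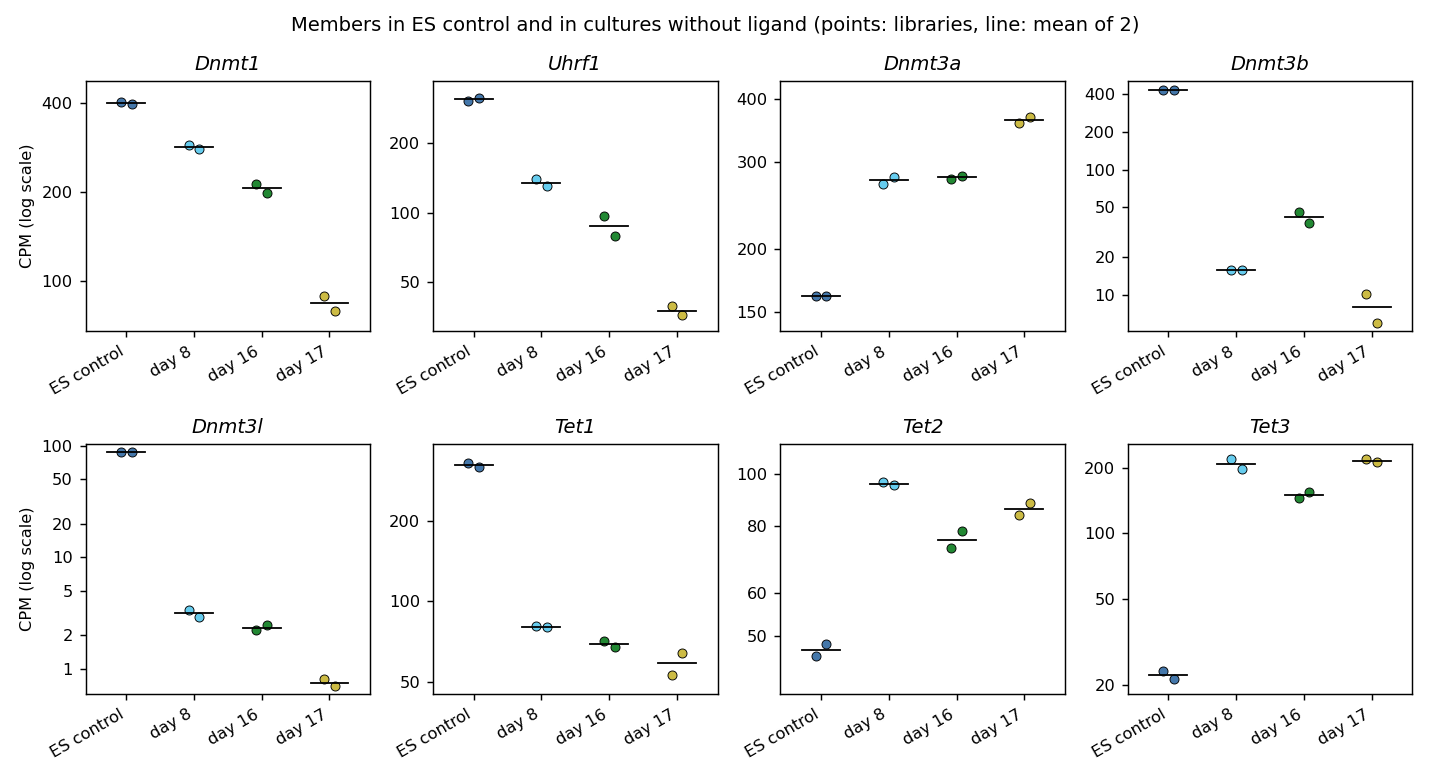
Level of each member (CPM, log axis, own scale for each gene) in ES control and in cultures without ligand at days 8, 16 and 17. Points are libraries and lines the mean of 2. Dnmt3b and Dnmt3l drop at day 8, Dnmt1 and Uhrf1 step down at every stage, and Tet3 stands at 199 to 220 CPM at day 8, against 21.3 to 23.2 CPM in ES control.

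The maintenance pair went down at each stage. Dnmt1, the maintenance methyltransferase, had 403 and 398 CPM in ES control, 289 and 279 at day 8, 213 and 199 at day 16, and 89.2 and 79.5 at day 17. Uhrf1, its guide to hemimethylated sites, had 307 and 316 CPM in ES control, 140 and 131 at day 8, 96.9 and 79.1 at day 16, and 39.4 and 36.1 at day 17. For both genes no library of a stage overlapped the stage before it. Such separation was common: of all genes tested, 45.1% lay wholly above and 44.9% wholly below ES control at day 8. The shares were 39% and 43.6% at day 16 against day 8, and 37.6% and 40.1% at day 17 against day 16. Dnmt1 was 1.41-fold lower at day 8 than in ES control (log2 fold change -0.50, SE 0.06, adjusted p = 6.36e-07), 1.38-fold lower at day 16 than at day 8 (adjusted p = 3.88e-06) and 2.44-fold lower at day 17 than at day 16 (adjusted p = 4.74e-12). Uhrf1 was 2.30-fold lower at day 8 than in ES control (log2 fold change -1.20, SE 0.09, adjusted p = 2.18e-10), 1.54-fold lower at day 16 than at day 8 (adjusted p = 8.97e-06) and 2.32-fold lower at day 17 than at day 16 (adjusted p = 4.03e-09).

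A list of 10 proliferation genes (Mki67, Top2a, Mcm2 to Mcm7, Ccna2 and Cdk1) fell with them, 10 of 10 at each of the 3 steps. Of all genes tested 39.1% fell at the step to day 8, 32.2% at that to day 16 and 29.5% at that to day 17. The summed level of the list was 6010 to 6220 CPM in ES control, 2680 to 2740 at day 8, 1730 to 1950 at day 16 and 796 to 807 at day 17. None of the 10 was at 0 in any group. The part of cell division in the values of Dnmt1 and Uhrf1 was not tested.

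Among the de novo enzymes Dnmt3b and Dnmt3a went opposite ways. Dnmt3b had 432 and 431 CPM in ES control, 15.9 and 15.8 at day 8, 46.0 and 37.7 at day 16, and 10.1 and 6.01 at day 17. Dnmt3a had 161 and 161 CPM in ES control, 270 and 280 at day 8, 277 and 281 at day 16, and 358 and 369 at day 17. Libraries of successive stages did not overlap for Dnmt3b, and for Dnmt3a only those of days 8 and 16 did. Separation of this kind was common over all genes tested at each step (shares above). Dnmt3b was 27.2-fold lower at day 8 than in ES control (log2 fold change -4.77, SE 0.15, adjusted p = 1.61e-16). It then turned: it was 2.63-fold higher at day 16 than at day 8 (log2 fold change 1.39, SE 0.15, adjusted p = 1.3e-07) and 5.02-fold lower at day 17 than at day 16 (log2 fold change -2.33, SE 0.17, adjusted p = 7.14e-10). The ES cell marker Pou5f1, named after its values were seen, had 9.44 and 7.94 CPM at day 8. It had 21.9 and 16.1 at day 16 (adjusted p = 2.74e-05 against day 8) and 6.32 and 5.95 at day 17 (adjusted p = 1.45e-06 against day 16). Of its 50-base stretches 10.1% also occur in other genes. Of the 8 ES cell markers 3 rose and 3 fell at day 16 against day 8, and 3 rose and 2 fell at day 17 against day 16, with none at 0. Of all genes tested 26.8% rose and 29.5% fell at that later step. The 8 markers summed to 163 to 176 CPM at day 8, 157 to 178 at day 16 and 214 to 244 at day 17. The sum therefore did not share the course of Pou5f1. The part of the ES cell markers in the values of Dnmt3b was not tested. Dnmt3b was the 1 member that rose between days 8 and 16, when 5 fell and 61.6% of all genes tested changed (29.4% up and 32.2% down). Dnmt3a was 1.71-fold higher at day 8 than in ES control (log2 fold change 0.77, SE 0.06, adjusted p = 1.06e-10) and 1.30-fold higher at day 17 than at day 16 (adjusted p = 7.07e-06). Between days 8 and 16 its difference missed the threshold (log2 fold change 0.02, 95% interval -0.10 to 0.14, adjusted p = 0.774).

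Dnmt3l, the cofactor of the de novo enzymes, had its largest step at day 8. It had 87.4 and 88.0 CPM in ES control (1989 and 2228 counts), 3.37 and 2.94 at day 8 (87 and 90 counts), 2.22 and 2.45 at day 16 (54 and 89 counts), and 0.811 and 0.7 at day 17 (19 and 12 counts). It was 27.9-fold lower at day 8 than in ES control (log2 fold change -4.80, SE 0.17, adjusted p = 1.14e-15). The step between days 8 and 16 missed the threshold (log2 fold change -0.41, SE 0.25, adjusted p = 0.156), though it passed with no filter on low genes (adjusted p = 0.0319) and without the day 17 libraries (adjusted p = 0.0254). The later step, 3.07-fold lower at day 17 than at day 16 (log2 fold change -1.62, SE 0.37, adjusted p = 0.00084), rests on the 19 and 12 counts of day 17.

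Of the 3 Tet dioxygenases, Tet1 fell and Tet2 and Tet3 rose at day 8. Tet1 had 330 and 318 CPM in ES control, 80.6 and 80 at day 8, 71.1 and 67.5 at day 16, and 52.9 and 64.3 at day 17. Tet2 had 45.8 and 48.2 CPM in ES control, 96.3 and 95.4 at day 8, 72.6 and 78.1 at day 16, and 83.8 and 88.1 at day 17. Tet3 had 23.2 and 21.3 CPM in ES control, 220 and 199 at day 8, 146 and 155 at day 16, and 220 and 214 at day 17. Every library of days 8, 16 and 17 lay below both ES control libraries for Tet1 and above both for Tet2 and Tet3. Of all genes tested 44.9% lay wholly below and 45.1% wholly above ES control at day 8, and 44.9% and 46.4% at day 16. The share for day 17 is not given here, and the day 17 files also differ in listing reads aligned more than once. Tet1 was 4.03-fold lower at day 8 than in ES control (log2 fold change -2.01, SE 0.09, adjusted p = 2.25e-14), Tet2 2.04-fold higher (log2 fold change 1.03, SE 0.08, adjusted p = 5.84e-10) and Tet3 9.43-fold higher (log2 fold change 3.24, SE 0.08, adjusted p = 6.46e-18). At day 16 Tet2 was 1.27-fold lower (adjusted p = 0.000961) and Tet3 1.39-fold lower (adjusted p = 7.99e-06) than at day 8. At day 17 Tet3 was 1.44-fold higher than at day 16 (adjusted p = 2.61e-06), and Tet2 missed the threshold (log2 fold change 0.19, SE 0.08, adjusted p = 0.0578), though it passed in 4 of 11 alternatives (adjusted p = 0.0377 with no filter, 0.0494 with a stricter filter, 0.0483 with DESeq2 size factors and 0.0281 in a fit of the 2 groups alone). Between days 16 and 17 the count was 2 members up and 5 down, where 56.2% of all genes tested changed (26.8% up and 29.5% down).

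The small later falls of Tet1 rest on single libraries. It was 1.16-fold lower at day 16 than at day 8 (adjusted p = 0.0403), which was lost without day 16 replicate 2 (adjusted p = 0.147) and without day 8 replicate 1 (0.0851) or 2 (0.0707), and also with DESeq2 size factors (0.0944) and the DESeq2 Wald test (0.0918). It was 1.19-fold lower at day 17 than at day 16 (adjusted p = 0.0267), which was lost without day 16 replicate 1 (adjusted p = 0.153) or 2 (0.0504) and without day 17 replicate 1 (0.46).

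Set against ES control directly, the day 16 cultures differed as follows. Dnmt3l was 37.2-fold, Dnmt3b 10.4-fold, Tet1 4.68-fold, Uhrf1 3.55-fold and Dnmt1 1.94-fold lower. Tet3 was 6.78-fold, Dnmt3a 1.73-fold and Tet2 1.60-fold higher. All 8 passed the test, with adjusted p values between 6.79e-17 and 2.87e-07, in a comparison where 81.1% of all genes tested changed (41.5% up and 39.6% down). Astrocyte markers (Gfap, Aqp4 and 3 others) summed to 845 to 878 CPM and neuron markers (Tubb3, Map2 and 5 others) to 1620 to 1640 CPM at day 16, against 76.3 to 80.8 and 381 to 386 CPM in ES control. S100b, an astrocyte marker, was at 0 in ES control. The part of these cell types in the members' values was not tested.

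Divided by exon length, the levels give the make-up of each family in CPM per kb. Dnmt3b led its family in ES control with 84.5 CPM per kb, before Dnmt3l with 29.4 and Dnmt3a with 9.68. At day 8 the order was Dnmt3a with 16.5, Dnmt3b with 3.11 and Dnmt3l with 1.06 CPM per kb, and at day 17 Dnmt3a with 21.8, Dnmt3b with 1.58 and Dnmt3l with 0.253. As a share of the summed CPM per kb of the 3 genes, Dnmt3a held 79.3 and 80.5% at day 8, against 7.84 and 7.84% in ES control, and at day 17 it held 90.5 and 94.0%. Among the Tet genes, Tet1 had 21.0 CPM per kb in ES control, before Tet2 with 2.78 and Tet3 with 1.33. At day 8 Tet3 had 12.5, Tet2 5.68 and Tet1 5.20 CPM per kb, and at day 17 Tet3 had 13, Tet2 5.09 and Tet1 3.79. Tet1 held 21.6 and 22.8% of the Tet level per kb at day 8, against 83.9 and 83.3% in ES control. Tet3 held 54.7 and 52.4% at day 8, against 5.46 and 5.16% in ES control. Exon length is that of all annotated exons together, so the shares shift if a shorter isoform was in use.

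**Figure D2:**
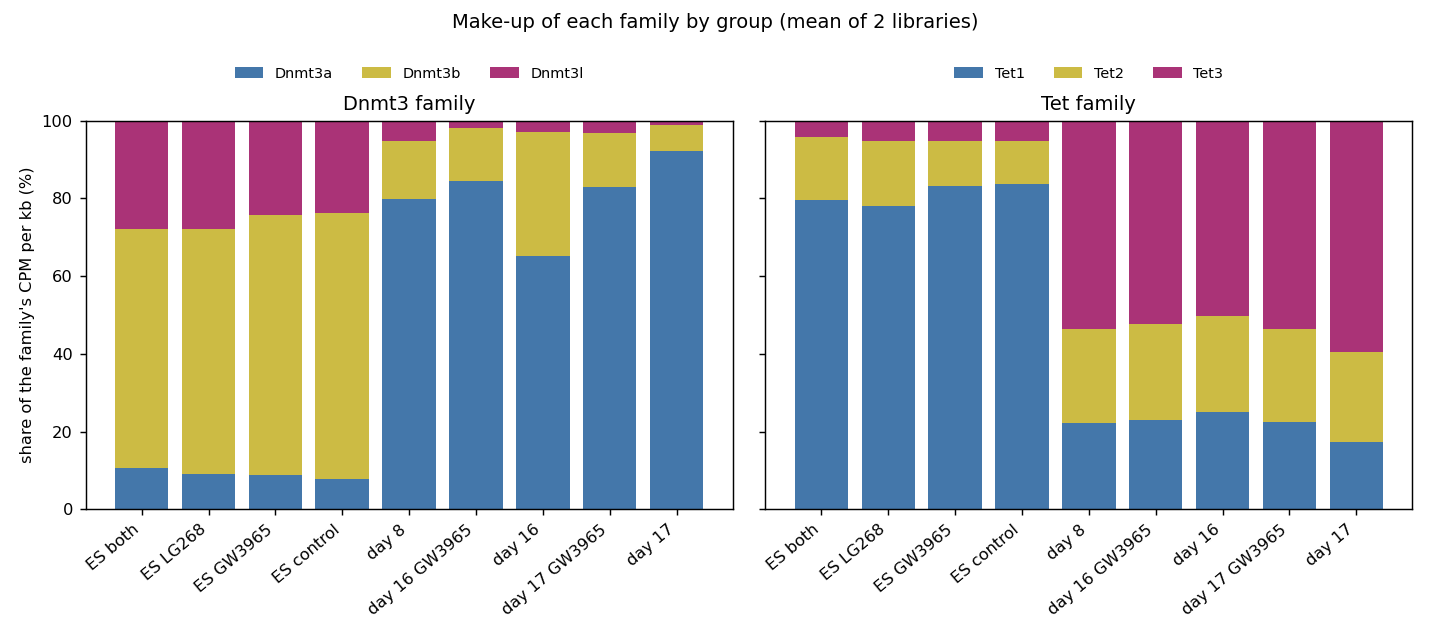
Share of each gene (%) in the summed CPM per kb of the Dnmt3 genes (left) and of the Tet genes (right) in the 9 groups, mean of 2 libraries. Dnmt3b fills most of the Dnmt3 bar in ES cells and Dnmt3a in differentiated cultures, while Tet1 leads the Tet bar in ES cells and Tet3 in all differentiated groups.

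In ES cells the ligands touched few members. The question of these comparisons is what LXR and RXR agonists do to stem cells, alone and together. Tet2 rose with LG268 and with both ligands, and Dnmt3b fell with both ligands. No member passed the test with GW3965 (0 at an unadjusted p below 0.05, 0 by DESeq2 and by limma-voom, and 1, Dnmt3b, in a fit of these groups alone), in a comparison where 0.32% of all genes tested changed (0.309% up and 0.0117% down). With LG268 1 of 8 members changed against 0.851% of all genes tested (0.518% up and 0.332% down). With both ligands 2 of 8 changed, 1 in each direction, against 11.3% (4.83% up and 6.47% down). These comparisons share the ES control libraries.

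**Figure D3:**
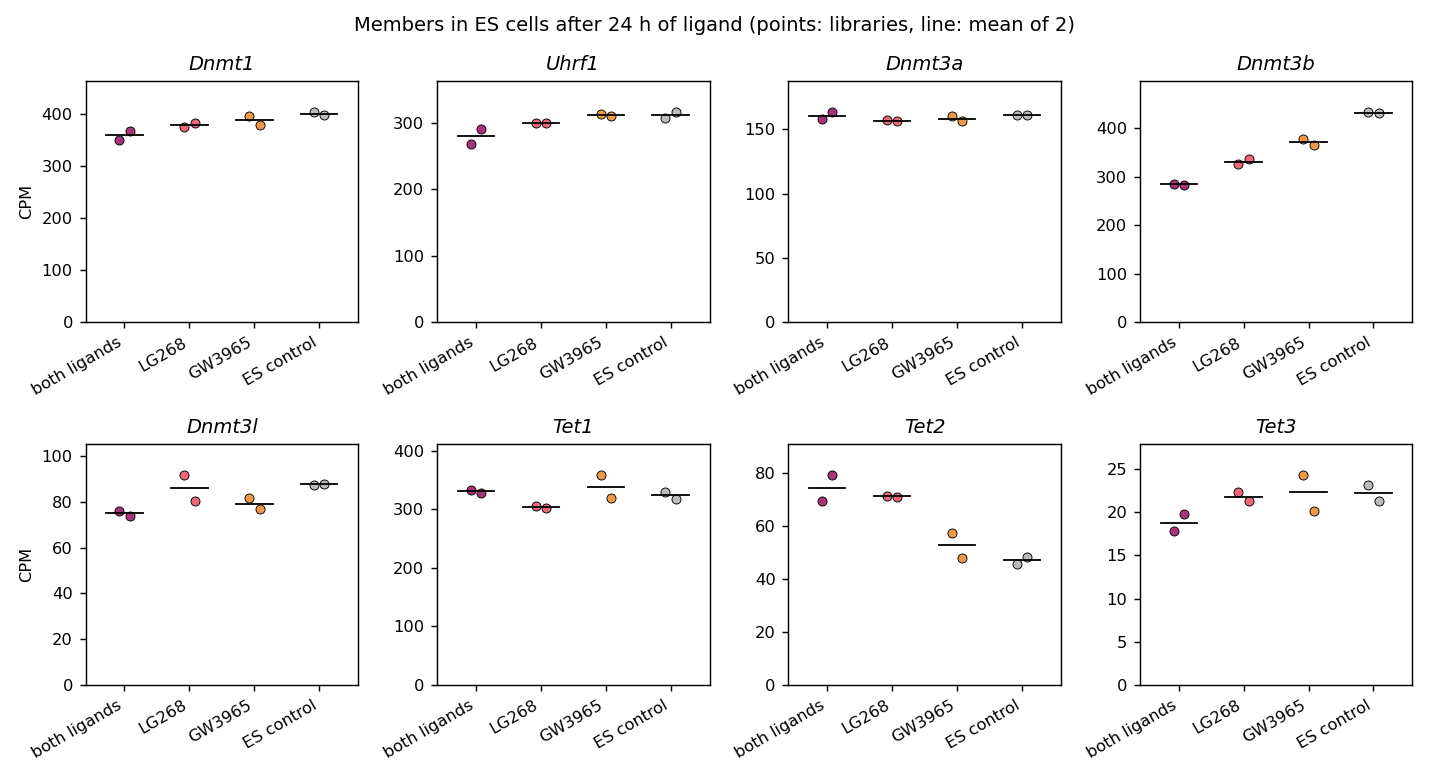
Level of each member (CPM, axis from 0) in ES cells after 24 h with both ligands, LG268 or GW3965 and in ES control. Points are libraries and lines the mean of 2. Dnmt3b is lowest with both ligands, at 283 to 285 CPM against 431 to 432 CPM in ES control, and Tet2 is high in the LG268 and both-ligand libraries.

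Tet2 had 69.6 and 79.2 CPM with both ligands, 71.4 and 71.1 with LG268 and 57.4 and 47.9 with GW3965, against 45.8 and 48.2 in ES control. Both libraries with LG268, and both with the 2 ligands, lay above all GW3965 and control libraries, whereas GW3965 and control overlapped. Of all genes tested, 20.9% lay wholly above ES control with LG268 and 23.4% with both ligands. Wholly above GW3965 lay 18.6% with LG268 and 23.8% with both ligands. Tet2 was 1.58-fold higher with both ligands than in ES control (log2 fold change 0.66, SE 0.09, adjusted p = 6.27e-05) and 1.52-fold higher with LG268 (log2 fold change 0.60, SE 0.09, adjusted p = 0.000608). With GW3965 its log2 fold change was 0.17 (95% interval -0.004 to 0.353, adjusted p = 0.907). Adding GW3965 to LG268 made a difference of 0.06 (log2, 95% interval -0.11 to 0.24, adjusted p = 0.749).

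At the same dose and time Tet2 was 1.34-fold higher with LG268 than with GW3965 (log2 fold change 0.43, SE 0.08, adjusted p = 0.0183), where 0.6% of all genes tested differed (0.285% up and 0.315% down). That call was lost without GW3965 replicate 2 (adjusted p = 0.304) and without LG268 replicate 1 (0.18) or 2 (0.165). It was 1.40-fold higher with both ligands than with GW3965 (log2 fold change 0.49, SE 0.08, adjusted p = 0.00179), where 10.7% of all genes tested differed (3.68% up and 6.98% down), and that call was lost in a fit of the 2 groups alone (adjusted p = 0.0709). No interaction of the ligands was called for a member (0 of 8, and 0 at an unadjusted p below 0.05, against 0.134% of all genes tested, 0.00583% up and 0.128% down). For Tet2 the interaction was -0.11 on the log2 scale (95% interval -0.36 to 0.14).

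Dnmt3b had 285 and 283 CPM with both ligands, 325 and 336 with LG268 and 378 and 364 with GW3965, against 432 and 431 in ES control. The 4 groups did not overlap and stood in that order from lowest to highest. For single pairs of groups this was common: with GW3965 18.7% of all genes tested lay wholly below ES control. With LG268 24.4% lay wholly below GW3965, and with both ligands 23.8% lay wholly below LG268. The fall with both ligands was 1.52-fold (log2 fold change -0.60, SE 0.12, adjusted p = 0.00325), and the DESeq2 Wald test did not call it (adjusted p = 0.0768). With LG268 the log2 fold change was -0.38 (SE 0.12, adjusted p = 0.198) and with GW3965 -0.22 (SE 0.12, adjusted p = 0.959), neither past the threshold. In fits of the compared groups alone both passed (adjusted p = 2.23e-08 with LG268 and 0.00022 with GW3965). With all libraries kept, LG268 also passed with no filter (adjusted p = 2.93e-05) and by limma-voom (0.0123). So the call with LG268 was gained in 3 of 12 alternatives, and that with GW3965 in 1 of 12. Against GW3965 alone, both ligands gave a level 1.31-fold lower (log2 fold change -0.39, SE 0.12, adjusted p = 0.046). Leaving out any 1 of those 4 libraries lost that call, with an adjusted p of 0.228 or 0.129 without GW3965 replicate 1 or 2 and of 0.177 or 0.0718 without both-ligand replicate 1 or 2. Against LG268 alone no member was called (0 of 8, 1 at an unadjusted p below 0.05, where 4.21% of all genes tested differed, 1.63% up and 2.57% down). For Dnmt3b that difference was -0.22 on the log2 scale (95% interval -0.47 to 0.03).

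With both ligands 3 of 8 ES cell markers also fell, where 6.47% of all genes tested fell. The markers' summed level was 2010 to 2020 CPM against 2210 to 2220 CPM in ES control, with none at 0. Proliferation genes summed to 5930 to 6410 CPM with both ligands and 6010 to 6220 CPM in ES control, with 2 of 10 lower. Their part in the fall of Dnmt3b was not tested. The other 6 members were not called with both ligands. The largest difference among them was that of Tet3, with 17.8 and 19.8 CPM against 23.2 and 21.3 CPM (log2 fold change -0.24, adjusted p = 0.117). Dnmt1 had 351 and 367 CPM against 403 and 398 CPM (adjusted p = 0.127).

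With GW3965, Dnmt1, Uhrf1, Dnmt3b and Dnmt3l were lower at day 16 and higher at day 17. At day 16 Dnmt3b, Dnmt3l, Uhrf1, Dnmt1 and Dnmt3a were lower with GW3965, 5 of 8 members down and 0 up, where 31.7% of all genes tested changed (13% up and 18.7% down). At day 17 Dnmt3l, Dnmt3b, Uhrf1, Tet1 and Dnmt1 were higher with GW3965, 5 of 8 up and 0 down, where 35.2% changed (17.2% up and 18% down). Tet2 and Tet3 passed the test on neither day. By the file names the 2 groups also differed in length of treatment. The day 17 files, with and without GW3965, also differ from the others in listing reads aligned more than once. Day, length and this difference in the files cannot be told apart.

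**Figure D4:**
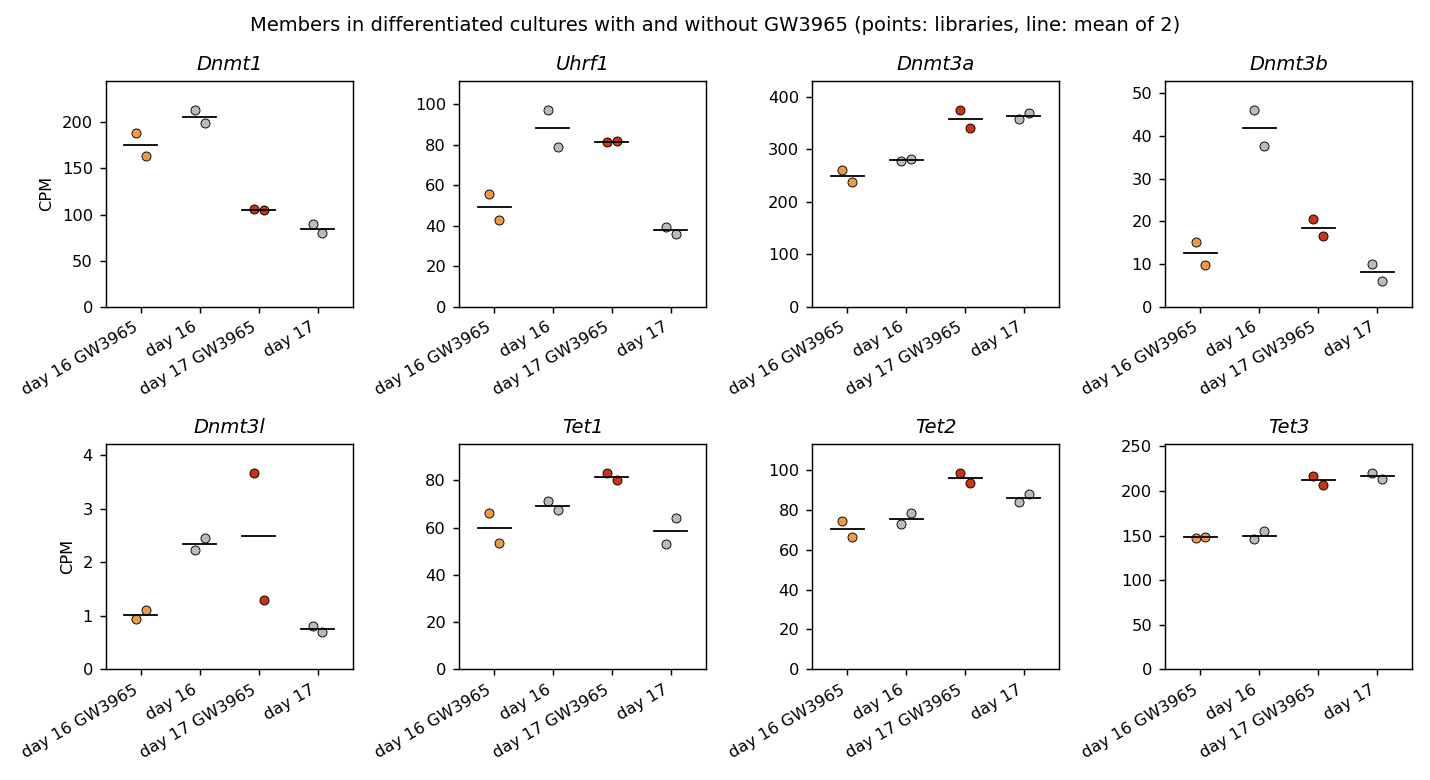
Level of each member (CPM, axis from 0) at days 16 and 17 with and without GW3965. Points are libraries and lines the mean of 2. Dnmt3b and Uhrf1 lie below their controls at day 16 and above them at day 17, while Tet3 overlaps its control on both days.

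Dnmt3b had 15.2 and 9.76 CPM with GW3965 at day 16, against 46.0 and 37.7 CPM without it. At day 17 it had 20.5 and 16.5 CPM with GW3965, against 10.1 and 6.01 CPM without it. The groups did not overlap on either day, and the level with GW3965 at day 17 stayed below the level without it at day 16. Of all genes tested, 29.2% lay wholly above and 37% wholly below the cultures without ligand at day 16. At day 17 these shares were 33.5% and 32.6%. The difference was 3.34-fold lower at day 16 (log2 fold change -1.74, SE 0.15, adjusted p = 1.15e-07) and 2.23-fold higher at day 17 (log2 fold change 1.16, SE 0.19, adjusted p = 9.75e-05).

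Uhrf1 had 55.5 and 42.7 CPM with GW3965 at day 16, against 96.9 and 79.1 CPM without it, and at day 17 it had 81.1 and 81.9 CPM with GW3965, against 39.4 and 36.1 CPM without it. The groups were again apart on both days. Uhrf1 was 1.79-fold lower at day 16 (log2 fold change -0.84, SE 0.10, adjusted p = 2.17e-06) and 2.15-fold higher at day 17 (log2 fold change 1.11, SE 0.10, adjusted p = 1.13e-07). Dnmt1, which Uhrf1 recruits, had 188 and 164 CPM with GW3965 at day 16 against 213 and 199 CPM without it, and 106 and 105 CPM with GW3965 at day 17 against 89.2 and 79.5 CPM without it. It was 1.17-fold lower at day 16 (adjusted p = 0.012) and higher at day 17 (log2 fold change 0.32, SE 0.07, adjusted p = 0.00125). The day 16 call of Dnmt1 was lost in a fit of the 2 groups alone (adjusted p = 0.0745), without day 16 replicate 1 (0.144) and without replicate 2 of the group with GW3965 (0.226).

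Dnmt3l had few reads in these groups. It had 31 and 36 counts (0.938 and 1.10 CPM) with GW3965 at day 16, against 54 and 89 counts (2.22 and 2.45 CPM) without it. At day 17 it had 82 and 31 counts (3.66 and 1.30 CPM) with GW3965, against 19 and 12 counts (0.811 and 0.7 CPM) without it. The groups did not overlap, but the 2 libraries with GW3965 at day 17 differed widely. Dnmt3l was 2.30-fold lower at day 16 (log2 fold change -1.20, SE 0.30, adjusted p = 0.00443), which was lost without day 16 replicate 2 (adjusted p = 0.0517). It was 3.20-fold higher at day 17 (log2 fold change 1.68, SE 0.38, adjusted p = 0.00186), and without replicate 1 of the group with GW3965 the log2 fold change was 0.77 and the call was lost (adjusted p = 0.107).

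The remaining members were Tet1, Dnmt3a, Tet2 and Tet3. Tet1 had 66.3 and 53.6 CPM with GW3965 at day 16 against 71.1 and 67.5 CPM without it (log2 fold change -0.21, SE 0.09, adjusted p = 0.0804). At day 17 it had 83.1 and 80.2 CPM with GW3965 against 52.9 and 64.3 CPM without it, 1.40-fold higher (log2 fold change 0.48, SE 0.09, adjusted p = 0.000361). The day 16 value of Tet1 did pass without replicate 1 of the group with GW3965 (adjusted p = 0.00499) and with no filter (0.0186). Dnmt3a had 260 and 238 CPM with GW3965 at day 16 against 277 and 281 CPM without it, 1.12-fold lower (adjusted p = 0.0277), and 374 and 341 CPM against 358 and 369 CPM at day 17 (log2 fold change -0.02, adjusted p = 0.792). The day 16 call of Dnmt3a was lost in 6 of 12 alternatives, among them those without day 16 replicate 1 (adjusted p = 0.0873) or 2 (0.137) and without replicate 2 of the group with GW3965 (0.293). Tet2 had 74.4 and 66.3 CPM with GW3965 at day 16 against 72.6 and 78.1 CPM without it, and 98.3 and 93.2 CPM at day 17 against 83.8 and 88.1 CPM. Tet3 had 147 and 148 CPM with GW3965 at day 16 against 146 and 155 CPM without it, and 217 and 207 CPM at day 17 against 220 and 214 CPM. For Tet3 the 95% interval of the log2 fold change was -0.18 to 0.12 at day 16 and -0.18 to 0.11 at day 17.

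**Figure D5:**
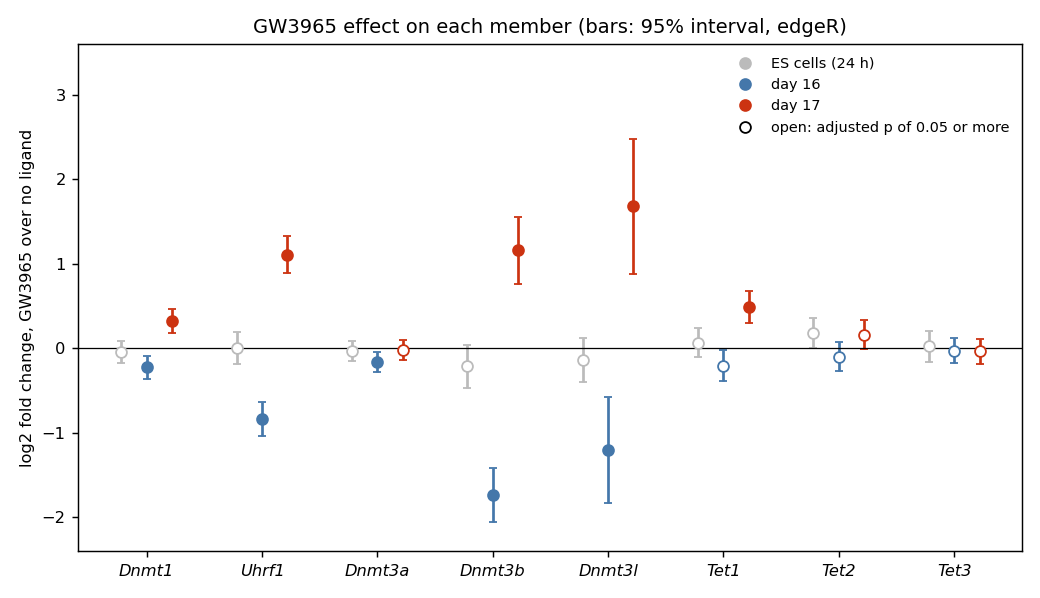
Log2 fold change of each member with GW3965 over no ligand in ES cells (24 h), at day 16 and at day 17, with 95% intervals of the edgeR fit. Filled points passed an adjusted p of 0.05. The intervals of Uhrf1, Dnmt3b and Dnmt3l lie below 0 at day 16 and above 0 at day 17, and all 8 points in ES cells are open.

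The differences between these responses were tested directly. The response at day 17 exceeded that at day 16 for Dnmt3b by 2.90 on the log2 scale (SE 0.24, adjusted p = 3.06e-08), for Dnmt3l by 2.88 (SE 0.49, adjusted p = 0.000106), for Uhrf1 by 1.95 (SE 0.14, adjusted p = 5.98e-09), for Tet1 by 0.69 (SE 0.13, adjusted p = 0.000256) and for Dnmt1 by 0.54 (SE 0.10, adjusted p = 0.000155). This comparison was added after both days' values were seen, and 5 of 8 members passed it where 37% of all genes tested did (20% up and 17% down). Against the ES response, that at day 16 was lower for Dnmt3b (-1.52, SE 0.19, adjusted p = 4.16e-05), Dnmt3l (-1.06, SE 0.33, adjusted p = 0.0349) and Uhrf1 (-0.84, SE 0.13, adjusted p = 0.000257), 3 of 8 members against 14.8% of all genes tested (4.86% up and 9.89% down). The call of Dnmt3l was lost without any 1 of the 8 libraries compared (adjusted p from 0.0518 to 0.156), by the DESeq2 Wald test (0.0802) and by limma-voom (0.0863). Against the ES response, that at day 17 was higher for 5 of 8 members, the same 5 that rose at day 17, against 18.2% of all genes tested (8.59% up and 9.65% down). The sizes were 1.82 for Dnmt3l (SE 0.40, adjusted p = 0.00314), 1.37 for Dnmt3b (SE 0.23, adjusted p = 0.000255), 1.10 for Uhrf1 (SE 0.14, adjusted p = 1.32e-05), 0.42 for Tet1 (SE 0.12, adjusted p = 0.0213) and 0.37 for Dnmt1 (SE 0.09, adjusted p = 0.01). Single libraries decided 3 of them: Dnmt3l was lost without replicate 1 of day 17 with GW3965 (log2 0.91, adjusted p = 0.0847), Dnmt1 without day 17 replicate 2 (adjusted p = 0.0627), and Tet1 without day 17 replicate 1 (adjusted p = 0.161), day 17 with GW3965 replicate 1 (0.0681), ES control replicate 1 (0.0753) or ES GW3965 replicate 2 (0.107).

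Markers of dividing and of other cells moved with GW3965 too. Of all genes tested 13% rose and 18.7% fell with it at day 16, and 17.2% rose and 18% fell at day 17. Of the 10 proliferation genes 10 fell at day 16, with a summed level of 1030 to 1300 CPM with GW3965 against 1730 to 1950 CPM without it. At day 17 9 rose, with 1330 to 1380 CPM with GW3965 against 796 to 807 CPM without it, and none was at 0. Neural progenitor markers (Pax6, Nes and 4 others) summed to 1400 to 1490 CPM with GW3965 against 1870 to 1990 CPM at day 16, and to 1550 to 1690 against 992 to 1070 CPM at day 17. Of these 6, 5 fell and 0 rose at day 16, and 4 rose and 0 fell at day 17. Neuron markers summed to 2440 to 2640 CPM with GW3965 against 1620 to 1640 CPM at day 16, and to 1470 to 1600 against 1250 to 1300 CPM at day 17. All 7 rose at day 16, but at day 17 3 rose and 2 fell. Mesenchyme markers (Col1a1, Dcn and 3 others) summed to 4460 to 5630 CPM with GW3965 against 9600 to 11000 CPM at day 16, and to 7710 to 8580 against 7880 to 8800 CPM at day 17. All 5 fell at day 16, and at day 17 2 rose and 1 fell. Astrocyte markers summed to 356 to 496 CPM with GW3965 against 845 to 878 CPM at day 16, and to 1640 to 2150 against 2640 to 2970 CPM at day 17. Of these 5, 4 fell and 0 rose at day 16, and 3 fell and 1 rose at day 17. Of 8 ES cell markers 1 rose and 5 fell with GW3965 at day 16 (median log2 fold change -1.505), and 3 rose and 2 fell at day 17 (median 0.52). Their sum, held up by the more abundant Sox2 and Klf4, was 112 to 124 CPM with GW3965 against 157 to 178 CPM at day 16, and 225 to 238 against 214 to 244 CPM at day 17. Pou5f1, a marker of this list named after its values were seen, had 5.29 and 3.28 CPM with GW3965 at day 16 against 21.9 and 16.1 CPM without it (log2 fold change -2.13, adjusted p = 2.64e-07). At day 17 it had 13.1 and 7.15 CPM with GW3965 against 6.32 and 5.95 CPM without it (log2 fold change 0.71, adjusted p = 0.0222). The part of all these markers in the members' values was not tested.

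Genes that work beside the members were described by 5 lists. Of 18 partners in maintenance and recruitment, 5 rose and 11 fell at day 8 against ES control, with a median log2 fold change of -0.22 against 0 over all genes tested. Of all genes tested 78.7% changed there (39.7% up and 39.1% down), so the number of partners called is near the background. Hells, a chromatin remodeller needed for full DNA methylation, had 104 ± 3.09 CPM at day 8 and 386 ± 34.4 CPM in ES control (SD, n = 2), 3.70-fold lower (adjusted p = 6.99e-15). Prdm14, which represses de novo methyltransferase genes in ES cells, fell to 0.456 ± 0.371 CPM at day 8, against 8.29 ± 0.33 CPM in ES control (adjusted p = 2.07e-09). Cxxc4, a CG-binding protein known to restrain Tet2, rose 35.0-fold to 58.3 ± 1.77 CPM at day 8, against 1.65 ± 0.288 CPM in ES control (adjusted p = 7.86e-17). With GW3965 2 partners rose and 6 fell at day 16, where 13% of all genes tested rose and 18.7% fell, and 7 rose and 3 fell at day 17, where 17.2% rose and 18% fell. Hells was 1.62-fold lower with GW3965 at day 16 (40 ± 3.61 CPM against 65.0 ± 5.44 CPM, adjusted p = 1.93e-06) and 1.42-fold higher at day 17 (32.9 ± 0.108 CPM against 23.3 ± 0.421 CPM, adjusted p = 0.000294). Cdca7, its partner on chromatin, was 1.98-fold lower with GW3965 at day 16 (28.6 ± 3.98 CPM against 57.0 ± 7.36 CPM, adjusted p = 1.39e-07), and at day 17 it was not called (45.9 CPM against 43.8 CPM, log2 fold change 0.07, adjusted p = 0.62).

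Of 8 readers of methylated CG sites 6 rose and 2 fell at day 8, with a median log2 fold change of 1.11 against 0 over all genes tested, of which 78.7% changed (39.7% up and 39.1% down). At day 16 against day 8, 3 rose and 4 fell, with a median of -0.24 against -0.04 over all genes tested, of which 29.4% rose and 32.2% fell. Zbtb4 was 3.72-fold higher (31.4 ± 1.92 CPM at day 8 against 8.42 ± 0.661 CPM in ES control, adjusted p = 9.81e-13) and Mbd2 2.30-fold higher (34.5 ± 0.487 CPM against 15.0 ± 1.48 CPM, adjusted p = 5.36e-11). With GW3965 1 reader rose and 1 fell at day 16 (13% and 18.7% of all genes tested) and 2 rose and 2 fell at day 17 (17.2% and 18%). Mbd4, a reader that is also a glycosylase, was 1.30-fold lower at day 16 (14.3 ± 2.92 CPM against 18.6 ± 1.44 CPM, adjusted p = 0.0136) and 2.05-fold higher at day 17 (23.3 ± 0.665 CPM against 11.4 ± 0.0589 CPM, adjusted p = 1.71e-06).

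Of 13 genes of base excision, the route by which oxidised or deaminated bases leave DNA, 3 rose and 9 fell at day 8 (median log2 fold change -0.72 against 0), where 39.7% of all genes tested rose and 39.1% fell. Neil2, a glycosylase, was 12-fold lower at day 8 (2.74 ± 0.227 CPM against 32.9 ± 1.94 CPM in ES control, adjusted p = 1.69e-15), and Smug1, a uracil glycosylase, 3.40-fold higher (121 ± 2.2 CPM against 35.7 ± 0.242 CPM, adjusted p = 3.66e-13). The stress-induced genes Gadd45b and Gadd45g went apart, Gadd45b 10.7-fold lower at day 8 (adjusted p = 1.17e-13) and Gadd45g 11.6-fold higher (adjusted p = 4.1e-12). Day 16 cultures with GW3965 had 1 of the 13 higher and 3 lower, where 13% of all genes tested rose and 18.7% fell. Day 17 cultures with GW3965 had 3 higher and 1 lower, where 17.2% rose and 18% fell. The 1 lower at day 17 was Gadd45a, 2.86-fold lower with GW3965 (9.14 ± 0.081 CPM against 26.0 ± 3.47 CPM, adjusted p = 1.18e-06). Tdg, which excises the oxidation products of the Tet enzymes, had group means of 0.0687 to 0.621 CPM, and 41.2% of its 50-base stretches occur elsewhere, so its level is uncertain.

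Among 10 genes that supply the methyl donor or the alpha-ketoglutarate used by Tet enzymes, 4 rose and 6 fell at day 8 (median log2 fold change -0.48 against 0), where 39.7% of all genes tested rose and 39.1% fell. Idh1, a cytosolic source of alpha-ketoglutarate, was 1.47-fold higher with both ligands in ES cells (243 ± 32.9 CPM against 165 ± 2.16 CPM, adjusted p = 7.02e-05). With GW3965 Idh1 was higher at day 16 (263 ± 13 CPM against 222 ± 1.96 CPM, adjusted p = 0.0137) and 2.05-fold higher at day 17 (219 ± 12.7 CPM against 107 ± 6.93 CPM, adjusted p = 3.68e-09). Idh1 was the only 1 of the 10 to rise with GW3965 at day 16, when 4 fell, where 13% of all genes tested rose and 18.7% fell. At day 17, 4 of the 10 rose and 1 fell with GW3965, where 17.2% rose and 18% fell. Ahcy, which clears the product of methylation, was counted at 2.35 ± 1.09 CPM at day 17 and 39.6 ± 2.45 CPM at day 16, and 68.7% of its 50-base stretches also occur in other genes. Only the day 17 files list reads aligned more than once, and the part of such reads in the values of Ahcy was not tested.

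Of 10 germline genes that are silenced by promoter methylation in somatic cells, 9 were tested and 9 fell at day 8, where 39.1% of all genes tested fell, with a median log2 fold change of -3.53 against 0 over all genes tested. Their summed level was 23.6 to 23.7 CPM at day 8, against 129 to 141 CPM in ES control. Ddx4, a germ cell helicase, was 35.1-fold lower (0.763 ± 0.0158 CPM at day 8 and 26.9 ± 0.212 CPM in ES control, adjusted p = 3.77e-14). Sycp3, of the meiotic chromosome axis, was 21.6-fold lower (2.89 ± 0.0692 CPM against 62.3 ± 5.17 CPM, adjusted p = 6.19e-16), with 43% of its 50-base stretches shared with another gene, mostly the overlapping Chpt1. DNA methylation itself was not measured in these files.

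Across all 9 groups the members span very different ranges. The ratio of the highest to the lowest group mean was 116 for Dnmt3l, 53.5 for Dnmt3b, 11.5 for Tet3, 8.27 for Uhrf1, 5.77 for Tet1, 4.75 for Dnmt1, 2.32 for Dnmt3a and 2.04 for Tet2. Day 17 without ligand held the lowest mean of Dnmt1, Uhrf1, Dnmt3b, Dnmt3l and Tet1 and the highest of Dnmt3a and Tet3. Ranked by mean, Tet3 ran 217 CPM at day 17, 212 at day 17 with GW3965, 209 at day 8, 150 at day 16 and 148 at day 16 with GW3965, before 18.8 to 22.3 CPM in the 4 ES groups. For Tet3, libraries overlapped between days 17 with and without GW3965, between day 17 with GW3965 and day 8, and between days 16 with and without GW3965. Of the 8 steps between neighbours in rank, libraries overlapped in 1 for Dnmt1 and Dnmt3b, in 2 for Uhrf1, in 4 for Dnmt3l and Tet1, and in 5 for Dnmt3a, Tet2 and Tet3. The same count over all genes is not given here.

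Likeness was measured by Pearson's correlation of mean log2 CPM over the 9 groups among 13847 other genes, with 2 large clusters of groups (ES and differentiated) in every value, so high values are common. Nearest to Dnmt1 were Dpp3 (r = 0.998), Prim1 (0.998) and Hdac1 (0.998), and nearest to Uhrf1 were Brca1 (0.998), Ticrr (0.998) and Knstrn (0.998). Among the 3 nearest to Dnmt3b was Slc2a1 (0.996). Nearest to Dnmt3l were Syk (0.999), Clhc1 (0.999) and Trim71 (0.998), and nearest to Dnmt3a were Uvssa (0.998), Tmem164 (0.997) and Lman2 (0.997). Nearest to Tet1 were C430002E04Rik (0.998), Mcph1 (0.998) and Sox15 (0.998), and to Tet3 Gata4 (0.999), Arf2 (0.999) and 2700081O15Rik (0.998). Tet2 had no such near neighbour, with Zbtb46 (0.925), Tmem218 (0.921) and Slc18a2 (0.914) closest. Among the members themselves Dnmt3l and Tet1 had 0.994 and Dnmt3b and Dnmt3l 0.982, while Tet1 and Tet3 had -0.976.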

How the data were processed

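RNA-seq libraries (18, in 9 groups of 2) were analysed from the gene counts the authors deposited, 1 file per library. Per the submitters' processing notes the build was mm10, and TopHat2 2.0.7, Cufflinks 2.0.2, HTSeq 0.6.0 and Cuffdiff 2.0.2 were used. Their roles, the annotation and the strand setting are not given in the sources used here. Summary lines for reads without a gene were kept out; these reads were 62.77 to 65.92% in 14 files and 42.14 to 43.36% in the day 17 files.

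Genes passing filterByExpr (17166 of 23420) were scaled by TMM and fitted with edgeR 4.0.16 (R 4.3.3), 9 groups, quasi-likelihood, 9 residual and 10.41 prior degrees of freedom. Tests were two-sided, with Benjamini-Hochberg adjustment over all genes tested within each of 16 comparisons and a threshold of 0.05. Depth of 16.75 M to 44.79 M gene counts limits low genes. Alternatives were no filter, 1 CPM in 4 libraries, DESeq2 1.42.0 size factors and Wald test, limma-voom (limma 3.58.1), the groups compared alone, a replicate block, leaving out each library and, chosen after seeing the data, no day 17 libraries. On simulated data for day 16 against day 8 (16711 genes), the test called 34% of genes with a set change of 1.25-fold, 66% at 1.5-fold, 96% at 2-fold and 100% at 4-fold, and 8.64% of its calls were false. Only 200 genes were changed in the simulation, whereas 61.6% of all genes tested were called in the real comparison. These rates therefore need not hold for the data.

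The members and lists were chosen with earlier results of these data known. The text names all members, at most 4 called genes per companion list and comparison (largest absolute log2 fold change among those with a group mean of 5 CPM or more), and the 3 genes most like each member. Tdg, the markers Pou5f1, Sox2 and Klf4, and Cdca7 at day 17 were named outside this rule after their values were seen, and Abca1 serves to check the labels. The test of the day 17 against the day 16 response was added after seeing the data. Some genes that this rule names are not reported here.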

Additional observations from a re-analysis of the deposited data

Results flagged for a closer look

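The response to GW3965 differed between settings for several members, and each difference below passed the test of the difference itself (edgeR, log2 scale). At day 16 against ES cells it was -0.84 for Uhrf1, -1.52 for Dnmt3b and -1.06 for Dnmt3l. At day 17 against ES cells it was 1.82 for Dnmt3l, 1.37 for Dnmt3b, 1.10 for Uhrf1, 0.42 for Tet1 and 0.37 for Dnmt1. At day 17 against day 16 it was 2.90 for Dnmt3b, 2.88 for Dnmt3l, 1.95 for Uhrf1, 0.69 for Tet1 and 0.54 for Dnmt1. The first 2 sets share the ES libraries, and no explanation was tested.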

How the results depend on the processing

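Of 1632 log2 fold changes of members under the alternatives, 1563 kept their side of the threshold, 46 lost the call, 23 gained it and 0 called values turned; of 883 uncalled under both, 51 changed sign. The number of members called moved by more than 1.5 times as follows. With no filter it was 2 for LG268 in ES cells and 1 for both ligands against LG268, and with limma-voom 2 for LG268 in ES cells. In fits of the groups compared alone it was 1 for GW3965 and 2 for LG268 in ES cells, 3 for LG268 against GW3965, 1 for both ligands against GW3965 and 3 for GW3965 at day 16. Smaller moves were by 1 member each, among them, with no filter, 3 for both ligands against GW3965, 7 for day 16 against day 8, 8 for day 17 against day 16 and 6 for GW3965 at day 16. With DESeq2 size factors it was 1 for both ligands against GW3965, and with the DESeq2 Wald test 1 for that comparison and 1 for both ligands in ES cells.

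Leaving out 1 library gave 0 to 1 for LG268 against GW3965, 1 to 2 for both ligands against GW3965, 3 to 6 for GW3965 at day 16 and 3 to 5 for the day 17 response against ES cells. Replicate numbers did not pair libraries between groups (36 pairs, correlation -0.096 to 0.0691); the replicate block left every count of members called within 1.5 times, for example 5 for GW3965 at day 16 and 5 at day 17. Low counts limit Dnmt3l, with 12 to 90 counts in differentiated libraries.

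Counts over all genes moved most in ES cells. Leaving out 1 library gave 28 to 44 for GW3965 (55 with all), 42 to 70 for LG268 (146), 718 to 2844 for both (1939), 29 to 35 for LG268 against GW3965 (103), 325 to 3077 for both against GW3965 (1831), 103 to 2379 for both against LG268 (722) and 2 to 1461 for the interaction (23). The other alternatives gave 52 to 369, 135 to 843, 427 to 2409, 90 to 892, 111 to 2396, 56 to 1373 and 5 to 617 in the same order. At day 16, 1 library less gave 3589 to 4880 for GW3965 (5446) and 1566 to 2652 for its difference from ES cells (2532). The cause was not tested.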
